A study of Mus musculus with 15 samples.

Results

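The 10 genes described here encode the salt-inducible kinases (Sik1, Sik2 and Sik3), the CREB coactivators they act on (Crtc1, Crtc2 and Crtc3), the transcription factors Creb1 and Crem, and the cAMP phosphodiesterases Pde4b and Pde4d. They were picked by name from the 42396 gene entries of each count table, with their change between C-del and mock muscle already known, so that change is given here as a description. The fit across all genes supplies only whether a member was among the genes that passed, and no p-value is given for a member. All 10 were found in both tables, and all 10 passed the filter on low counts in both. RNA was sequenced from the tibialis anterior, a muscle of the lower hindlimb, 2 months after adeno-associated virus of serotype AAV6 was delivered to the hindlimb of adult C57BL/6 mice. The virus carried LSMEM2 C-del, a form of LSMEM2 whose name the labels do not explain, or EGFP, a fluorescent protein, in the mock group. There were 4 male C-del, 4 male mock, 4 female C-del and 3 female mock libraries. All groups, mock included, therefore received virus. The promoter that drove either insert is not given in the sources used here, and no label ties the libraries of a group to different animals. The p-values therefore speak of the spread among libraries, part of which may be technical. Males and females are in separate tables, and sex and table cannot be told apart.

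Salt-inducible kinases belong to the AMPK-related family and are switched on by the kinase LKB1. They phosphorylate the CRTC coactivators and class IIa histone deacetylases, which 14-3-3 proteins then hold in the cytoplasm. When cAMP rises, protein kinase A phosphorylates the salt-inducible kinases and CREB, the CRTC proteins enter the nucleus, and CREB drives its targets. Sik1 is itself a CREB target, and in muscle it is known for keeping class IIa histone deacetylases from repressing MEF2 factors. Phosphodiesterases of the PDE4 family end the signal by breaking down cAMP.

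The delivered gene was read first. Lsmem2 had 481, 2355, 1865 and 1287 CPM (counts scaled to a fixed library size, here with TMM factors within a table) in the male C-del libraries, against 28.5 to 29.7 CPM in male mock. In females it had 1361, 2119, 1684 and 2705 CPM in C-del, against 30.0 to 32.8 CPM in mock. Reads of the insert and of the mouse gene cannot be told apart in these counts. The protocol text speaks of hearts, whereas the labels name skeletal muscle: the summed level of 6 skeletal muscle markers was 90440 to 128300 CPM over the 15 libraries, and that of 4 heart markers was 3.004 to 7.777 CPM, with Nppb at 0 in all groups. Total counts per library were 14297620 to 17744015 in males and 9285145 to 12054871 in females. Some libraries stood apart by cell type markers. Summed macrophage markers were 51.9 to 108.6 CPM in female C-del, against 82.7 CPM in female mock library 1 and 674.9 and 308.2 CPM in female mock libraries 2 and 3. Female mock library 2 also had 4730 CPM of B and plasma cell markers. In males, C-del libraries 1 and 2 had 184.1 and 203.8 CPM of macrophage markers and C-del libraries 3 and 4 had 56.5 and 73.4 CPM, against 68.2 to 85.2 CPM in mock. Male library numbers here are column numbers only.

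Of the 10 genes, Sik1 stood apart, with more RNA in every C-del library than in any mock library of the same sex. In males 1 of the 10 genes, Sik1, passed edgeR's quasi-likelihood test at a Benjamini-Hochberg adjusted p under 0.05, where 11.2% of the 14543 genes tested passed. In females 0 of the 10 passed, where 0.0141% of the 14220 genes tested, or 2 genes, passed. At an unadjusted p under 0.05, 3 members in males and 4 in females were below the threshold, where 26% and 11.9% of all genes were, and DESeq2 called 1 member in each sex (10.1% and 2.99% of all genes). Libraries of C-del and mock did not overlap for 2 members in males, Sik1 and Crtc3, where 17.6% of all genes did not overlap. They did not overlap for 4 members in females, Sik1, Crtc3, Crem and Pde4b, where 10.1% of all genes did not. In each of these cases the C-del libraries were the higher ones. The median log2 fold change of the 10 genes was 0.04 in males and 0.20 in females, beside -0.0048 and -0.015 over all genes tested. Female mock library 3 was the lowest of its group for 7 of the 10 genes, Sik1, Crtc2 and Crem being the exceptions. In bulk tissue, a change in the number of cells of a type and a change in RNA per cell cannot be told apart.

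**Figure D1:**
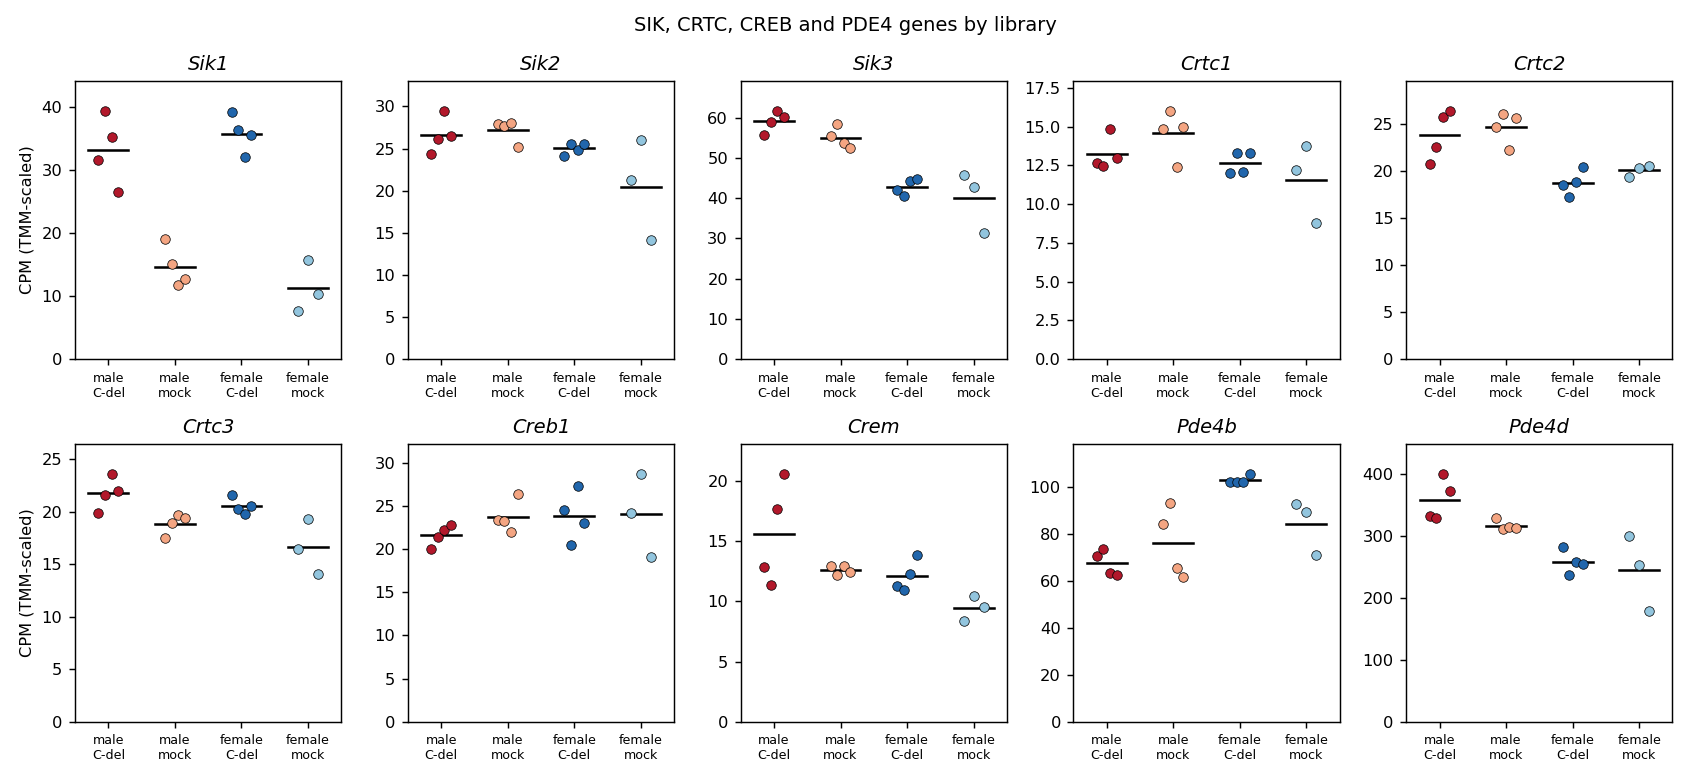
Each panel shows 1 gene, each point 1 library in CPM (TMM-scaled within the male and the female table) and each bar a group mean, with C-del to the left of mock in each sex. The Sik1 points of C-del lie at 26.6 CPM or above and those of mock at 19.01 CPM or below, and no other gene shows as wide a gap relative to its level in either sex.

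Among the kinases, Sik1 is the member whose own transcription cAMP induces. Its locus is on chromosome 17, 31844248 to 31855804 on the minus strand of GRCm38.p6, and no other annotated gene overlaps its exons. In males, Sik1 had 31.6, 39.5, 35.2 and 26.6 CPM in C-del, against 19.01, 15.2, 11.7 and 12.8 CPM in mock. The lowest C-del library was above the highest mock library. Sik1 averaged 33.2 ± 5.47 CPM in male C-del muscle and 14.7 ± 3.23 CPM in male mock (SD, n = 4 each). The log2 fold change was 1.18 ± 0.17 (SE), or 2.26-fold, which is place 69 of 14543 genes ordered from the largest rise down. It was 0.96 to 1.33 over 13 other ways of processing, all of which called it.

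In females, Sik1 had 39.2, 36.4, 32.0 and 35.6 CPM in C-del, against 7.68, 15.8 and 10.3 CPM in mock. Again no C-del library came near a mock library, and mock library 2, with its raised immune markers, was the highest of the mock group. The means were 35.8 ± 2.95 CPM in female C-del (SD, n = 4) and 11.3 ± 4.14 CPM in female mock (SD, n = 3). The log2 fold change was 1.65 ± 0.21 (SE), or 3.15-fold, place 20 of 14220 genes. It did not pass the adjusted threshold in the female fit, passed in 6 of 13 other ways of processing, and ranged from 1.44 to 2.22 over them. The highest value, and 1 of the 6 passes, came without female mock libraries 2 and 3, a fit that has 1 mock library and assumes that it varies as the C-del libraries do. The female minus male difference in the log2 fold change was 0.47 ± 0.27 (SE), which did not pass in any of 19 other ways of processing.

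Within the C-del groups, libraries with more delivered RNA were not always those with more Sik1. In males, libraries 2 and 3 were the highest in both genes, but library 1, with the least Lsmem2 (481 CPM), had 31.6 CPM of Sik1, and library 4, with 1287 CPM of Lsmem2, had the least Sik1, 26.6 CPM. In females, library 1 had the least Lsmem2, 1361 CPM, and the most Sik1, 39.2 CPM. With 4 libraries a group, a relation between the 2 genes could not be tested. The pair of male C-del libraries with high macrophage markers had 31.6 and 39.5 CPM of Sik1, and the pair with low markers had 35.2 and 26.6 CPM, so that the pairs overlapped.

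Sik2, a kinase best known from fat and the nervous system, showed no such rise. In males it had 24.3, 26.2, 29.5 and 26.5 CPM in C-del, against 27.9, 27.6, 28.04 and 25.1 CPM in mock, a log2 fold change of -0.03 ± 0.07 (SE). Female libraries had 24.1, 25.6, 24.9 and 25.6 CPM in C-del, against 21.3, 26.0 and 14.2 CPM in mock, a log2 fold change of 0.28 ± 0.18 (SE). The groups overlapped in both sexes, and the female value was 0.08 without mock library 3, the low one. Of the exon bases of Sik2, 15% are shared with Ppp2r1b on the opposite strand, and the use of strand in counting is not given in the sources used here, so a part of its reads may belong to that gene. Sik3, the broadly expressed member of the family, had 55.8, 59.0, 61.8 and 60.3 CPM in male C-del, against 55.5, 58.6, 53.7 and 52.6 CPM in male mock. It had 42.1, 40.6, 44.3 and 44.7 CPM in female C-del, against 45.9, 42.7 and 31.5 CPM in female mock. Its log2 fold changes, 0.10 ± 0.05 in males and 0.10 ± 0.14 in females (SE), were small, with overlapping libraries in both sexes. The female value fell to -0.09 without mock libraries 2 and 3.

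Salt-inducible kinases and the PDE4 genes stand on both sides of CREB, so the stretches around their start sites were read for the cAMP response element. The full element searched is TGACGTCA, which reads the same on both strands. The shorter form is TGACG or, on the other strand, CGTCA, and every full element also holds it on each strand. RefSeq promoter windows of 300 bases, 250 before the start site to 50 after it, were available for 7 of the 10 genes, with Sik1, Crtc2 and Crem not among them. Of these 7 genes, 0 held the full element and 3 held the shorter one, Sik2, Sik3 and Pde4b. Over all 32851 windows of the same length, 1.79% held the full element and 20.8% the shorter one. These shares are per window, whereas a gene was counted when any of its windows held a match. Pde4b has 4 windows, so the 2 kinds of count are not alike. Below are the stretches with matches in capitals and up to 20 flanking bases, read 5′ to 3′ in the direction of the gene on GRCm38.p6. They are shown because these 3 are the members with a match, and none of the 3 passed the threshold in either sex. A match describes letters only, and binding was not measured.

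Sik2, chr9:51009037-51009094, minus strand: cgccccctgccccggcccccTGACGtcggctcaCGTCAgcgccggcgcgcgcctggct

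Sik3, chr9:46012667-46012787, plus strand: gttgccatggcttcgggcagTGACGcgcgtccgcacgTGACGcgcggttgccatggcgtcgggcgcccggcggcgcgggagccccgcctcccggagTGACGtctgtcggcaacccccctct

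Pde4b, the first of 4 start sites, chr4:102421501-102421545, plus strand: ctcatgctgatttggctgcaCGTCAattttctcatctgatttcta

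Sik2 holds 2 of the shorter elements facing each other around the start site, Sik3 holds 3 upstream of its own in the same direction, and Pde4b holds 1. These 3 genes with a match had log2 fold changes between -0.17 and 0.10 in males and between 0.10 and 0.29 in females.

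The kinases can be set against each other only per length. On that scale, CPM per kilobase of annotated exon, Sik1 made up 41.3 ± 4.10% of the summed level of the 3 kinase genes in male C-del and 24.4 ± 3.65% in male mock (SD, n = 4 each). In females the share was 49.0 ± 2.66% in C-del (SD, n = 4) and 25.4 ± 7.02% in mock (SD, n = 3). The lowest C-del shares, 35.9% in males and 45.9% in females, were above the highest mock shares of 29.4% and 29.6%. Sik3 was the largest part in mock muscle, with 51% in males and 50% in females. In C-del muscle Sik3 made up 40.8% in males and 32.5% in females. Sik2 made up 17.9% in male C-del and 24.6% in male mock, and 18.5% in female C-del and 24.5% in female mock. Since the levels of Sik2 and Sik3 moved little, these shares move with Sik1. The sizes of the shares, and which kinase gene was the higher in male C-del muscle, depend on the length used. With the longest transcript as the length, a choice made after seeing the data, Sik1 made up 33.7% in male C-del and 18.9% in male mock, and 40.8% in female C-del and 19.7% in female mock. By that length Sik3 was higher than Sik1 in male C-del muscle, at 9.42 CPM per kilobase (8.88 to 9.82 over the libraries) for Sik3 and 7.35 CPM per kilobase (5.88 to 8.73) for Sik1, without overlap.

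**Figure D2:**
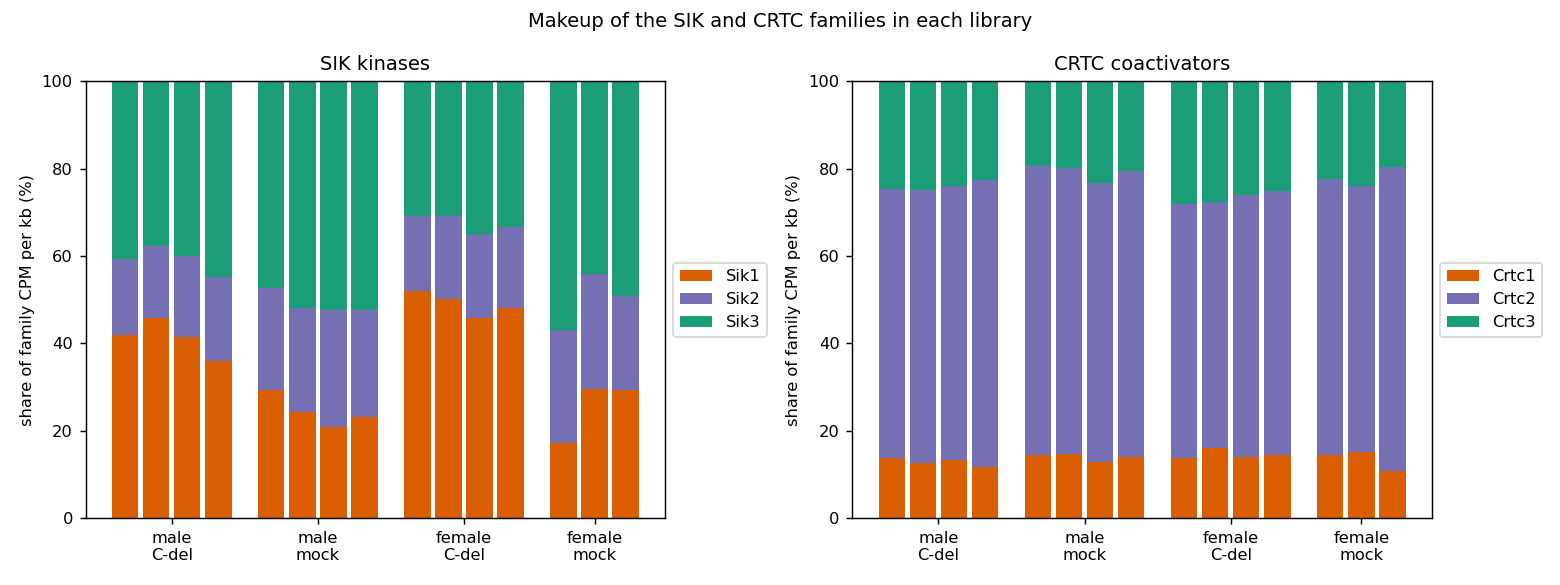
Each bar is 1 library, divided by the share of each gene in the summed CPM per kilobase of its family, kinases on the left and coactivators on the right, with C-del before mock in each sex. The Sik1 part is 35.9% to 52.0% in C-del libraries and 17.3% to 29.6% in mock libraries, while Crtc2 is the largest coactivator part in all 15 libraries.

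The coactivators carry the signal of the kinases to CREB, and differed little between the groups. Crtc3 was the member with the clearest difference. It had 19.9, 21.6, 23.7 and 21.98 CPM in male C-del, against 17.5, 18.98, 19.7 and 19.4 CPM in male mock. The female libraries held 21.7, 20.2, 19.8 and 20.6 CPM in C-del, against 16.5, 19.3 and 14.1 CPM in mock. All C-del libraries were above all mock libraries in both sexes, by a margin of less than 1 CPM. The log2 fold changes were 0.21 ± 0.07 in males and 0.30 ± 0.13 in females (SE). Neither passed the adjusted threshold, and the male value passed only when C-del library 1 was left out.

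Crtc1, the coactivator best known from neurons, had 12.6, 12.5, 14.9 and 12.97 CPM in male C-del, against 14.9, 16.03, 12.4 and 15 CPM in male mock. It had 11.99, 13.3, 12.1 and 13.3 CPM in female C-del, against 12.2, 13.8 and 8.80 CPM in female mock. The groups overlapped in both sexes, with log2 fold changes of -0.14 ± 0.09 in males and 0.12 ± 0.16 in females (SE). Crtc2, the coactivator best known from glucose production in liver, had 20.7, 22.6, 25.7 and 26.4 CPM in male C-del, against 24.6, 26.1, 22.2 and 25.6 CPM in male mock. In females the values were 18.5, 17.2, 18.9 and 20.5 CPM in C-del, against 19.3, 20.4 and 20.6 CPM in mock. Its log2 fold changes were -0.05 ± 0.08 in males and -0.10 ± 0.11 in females (SE), with overlap in both. Per kilobase, Crtc2 made up 63.1 ± 1.69% of the 3 coactivator genes in male C-del, 65.1 ± 1.03% in male mock, 58.7 ± 1.82% in female C-del and 64.5 ± 4.41% in female mock (SD). Crtc3 made up 24.0 ± 0.97% in male C-del and 20.8 ± 1.78% in male mock, and 26.8 ± 1.36% in female C-del and 22 ± 2.15% in female mock (SD).

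Creb1, the factor that CRTC proteins bind, had 19.99, 21.4, 22.2 and 22.9 CPM in male C-del, against 23.3, 23.3, 22.04 and 26.4 CPM in male mock. Female muscle had 24.6, 20.5, 27.4 and 23.1 CPM in C-del, against 24.3, 28.8 and 19.1 CPM in mock. The groups overlapped in both sexes, with log2 fold changes of -0.13 ± 0.07 in males and -0.01 ± 0.16 in females (SE). Crem encodes both activators and repressors of CREB sites, among them the short repressor ICER, made from an internal promoter that cAMP switches on. Counts per gene do not separate these forms. Its annotation lists 39 transcripts, and 8.01% of its exon bases are shared with Gm6225 on the opposite strand. Crem had 12.8, 11.3, 17.7 and 20.6 CPM in male C-del, against 12.99, 12.2, 12.96 and 12.4 CPM in male mock. Male C-del libraries 3 and 4 were above all mock libraries and libraries 1 and 2 were not. Libraries 1 and 2 are also the pair with high macrophage markers, and the part of those cells in the difference was not tested. In females Crem had 11.3, 10.9, 12.3 and 13.9 CPM in C-del, against 8.34, 10.4 and 9.57 CPM in mock, and the groups did not overlap. The log2 fold changes were 0.30 ± 0.17 in males and 0.35 ± 0.15 in females (SE). The female value was 0.54 without mock libraries 2 and 3.

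Of the phosphodiesterases, Pde4b had fold changes of opposite sign in the sexes. In males it had 70.4, 73.4, 63.3 and 62.5 CPM in C-del, against 84.1, 93.2, 65.3 and 61.5 CPM in mock. The mock libraries fell into a high pair and a low pair, and the C-del libraries lay below the high pair and around the low one. The log2 fold change was -0.17 ± 0.14 (SE). Without mock libraries 3 and 4 it was -0.40 and passed the threshold. These are the low pair for Pde4b itself, so leaving them out raises the mock level, and nothing is concluded from that pass. In females Pde4b had 101.9, 101.9, 102.1 and 105.6 CPM in C-del, against 92.4, 89.4 and 71.1 CPM in mock. The C-del libraries lay within a narrow range above all mock libraries, with a log2 fold change of 0.29 ± 0.11 (SE). The female minus male difference was 0.46 ± 0.17 on the log2 scale (SE), and 0 of the 10 genes passed the adjusted threshold for that difference, where 0.354% of the 15272 genes tested passed. Without the adjustment 1 member, Pde4b, was below 0.05, where 16.9% of all genes were.

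Pde4d, the most abundant of the 10 genes, had 331.6, 328.6, 400.9 and 372.4 CPM in male C-del, against 329.3, 310.8, 315.0 and 312.3 CPM in male mock. In females it had 281.7, 237.8, 258.2 and 255.5 CPM in C-del, against 300.1, 253.4 and 179.5 CPM in mock. The male groups overlapped only through mock library 1 and C-del library 2, and the female mock libraries spanned the whole range of C-del. The log2 fold changes were 0.18 ± 0.06 in males and 0.08 ± 0.16 in females (SE), and the female value was -0.21 without mock libraries 2 and 3. The male value passed when all genes were tested without a filter and when C-del library 1 or 2 was left out. The 2 PDE4 genes have 13 and 20 annotated transcripts, long and short forms included, which counts per gene do not separate.

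**Figure D3:**
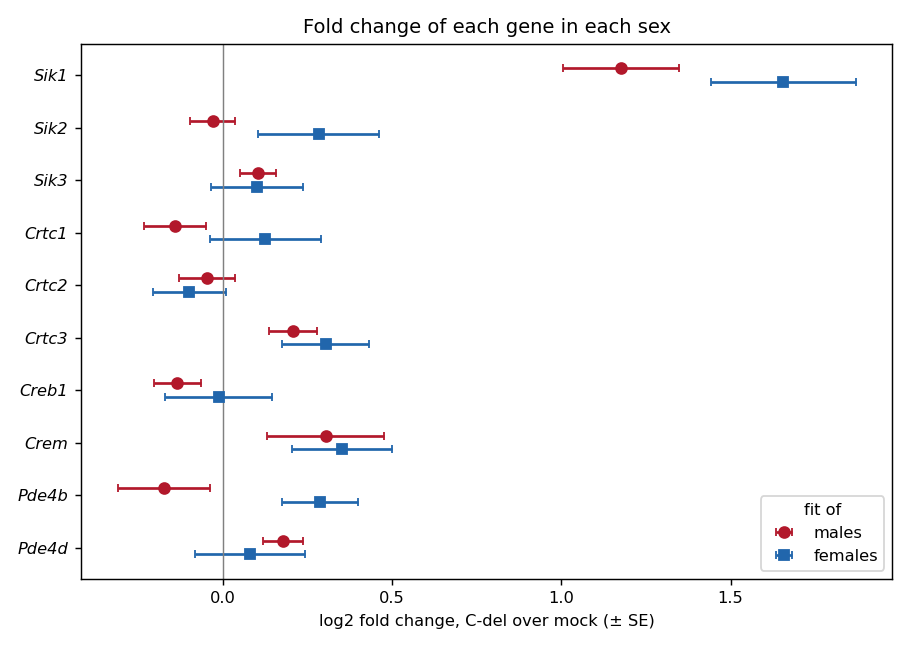
Points give the log2 fold change of C-del over mock for each gene, males as circles above females as squares, and bars are ± 1 SE. Sik1 lies at 1.18 in males and 1.65 in females, and all the other points lie between -0.17 and 0.35.

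Ordered by level per length, Pde4d came first in all 4 groups, with 29.8 ± 2.89 CPM per kilobase in male C-del, 26.4 ± 0.71 in male mock, 21.5 ± 1.5 in female C-del and 20.3 ± 5.06 in female mock (SD). Crtc1 came last in all 4, at 1.04 to 1.30 CPM per kilobase. Sik1 took place 2 in male C-del with 6.47 ± 1.07 CPM per kilobase and place 5 of the order in male mock with 2.86 ± 0.63 (SD). In male C-del its range overlapped that of Pde4b, the next in order, and in male mock it overlapped Sik2, the next in order, but not Sik3, the one above. In females Sik1 took place 3 in C-del with 6.97 ± 0.57 CPM per kilobase and place 5 in mock with 2.20 ± 0.81 (SD). In female C-del it stood clear of its neighbours, Pde4b above and Sik3 below. In the middle of the order, the ranges of Sik3 and Crtc2 overlapped in all 4 groups. Those of Crem and Crtc3 overlapped in every group except male mock. With the longest transcript in place of all annotated exons as the length, a choice made after seeing the data, 4 of 10 genes kept their place in the male mock order, so the order depends on the length used. Sik1 then took place 5 in male C-del and place 8 in male mock, and place 3 in female C-del and place 9 in female mock.

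The other genes of the pathway were read from 7 lists of 127 names, of which 112 were tested in each sex. In males 14 of them rose and 12 fell at an adjusted p under 0.05 in edgeR, 23.2% of those tested beside 11.2% of all genes. In females 0 rose and 0 fell, while at an unadjusted p under 0.05 18 were higher and 3 were lower, and DESeq2 called 8 higher and 0 lower. Over all 14220 genes tested in females, the unadjusted p was under 0.05 for 684 genes higher and 1008 lower in C-del. Among these same genes DESeq2 called 127 higher and 248 lower. Over the 17145 genes that DESeq2 itself tested, it called 512. The median log2 fold change of the pathway genes was -0.04 in males and 0.08 in females. Since the lists were drawn up with results of these libraries known, the counts are descriptions.

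**Figure D4:**
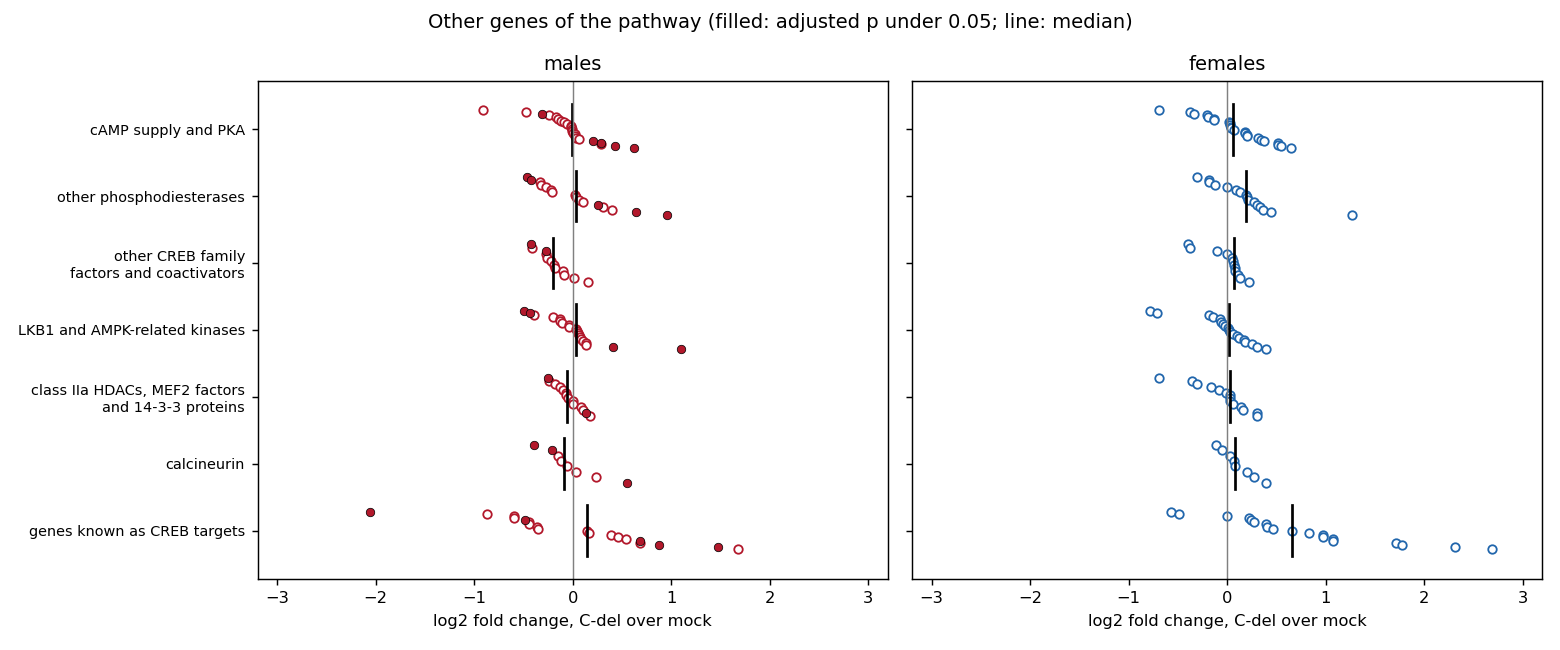
Each point is 1 gene of the list named on the left, placed by its log2 fold change of C-del over mock in males (left panel) and females (right panel), filled where edgeR's adjusted p was under 0.05, and each line is the median of a list. Filled points lie on both sides of 0 in 6 of the 7 lists in males, and 0 points are filled in females, where the CREB targets have a median of 0.65.

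Among genes that supply cAMP or act on its signal, protein kinase A included, 4 of 23 tested in males rose and 1 fell. That is 21.7% of the list, beside 11.2% of all genes. Adcy2, an adenylyl cyclase that makes cAMP, rose by 0.28 ± 0.06 on the log2 scale (SE, edgeR adjusted p = 0.00548). Rapgef3, the cAMP-bound exchange factor EPAC1, rose by 0.43 ± 0.09 on the same scale (SE, edgeR adjusted p = 0.00562). Both lost the call without male mock libraries 3 and 4. Over the 13 alternatives the adjusted p was 0.000516 to 0.0587 for Adcy2 and 0.00273 to 0.0817 for Rapgef3. In females the log2 fold changes of Adcy2 and Rapgef3 were 0.04 and 0.34, and the groups overlapped for both.

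Of 16 other phosphodiesterases tested in males, 3 rose and 2 fell, or 31.2%, beside 11.2% of all genes. Their median log2 fold change in males was 0.03, and in females 0 of 16 passed. Pde10a, which breaks down both cAMP and cGMP, had 13.02, 14.1, 10.5 and 10.7 CPM in male C-del, against 5.63, 5.63, 6.96 and 6.74 CPM in male mock. The groups were far apart, with a log2 fold change of 0.95 ± 0.12 (SE, edgeR adjusted p = 0.000192). In females Pde10a had 9.31, 18.2, 12.3 and 22.7 CPM in C-del, against 5.27, 9.04 and 4.95 CPM in mock, without overlap, and its log2 fold change of 1.26 ± 0.34 (SE, edgeR adjusted p = 0.195) did not pass. Pde8a, a cAMP-specific enzyme that the usual inhibitor IBMX does not block, had 43.3, 43.5, 39.7 and 37.4 CPM in male C-del, against 26.6, 25.1, 27.6 and 25.8 CPM in male mock. Its log2 fold change was 0.64 ± 0.06 in males (SE, edgeR adjusted p = 2.34e-05) and 0.45 ± 0.12 in females (SE, edgeR adjusted p = 0.197). Pde7a, another cAMP-specific enzyme, fell by 0.46 ± 0.07 on the log2 scale in males (SE, edgeR adjusted p = 0.000534), to 58.7 ± 2.22 CPM in C-del, against 80.7 ± 8.36 CPM in mock (SD, n = 4 each). In females it averaged 62.5 CPM in C-del and 62.6 CPM in mock. The female minus male difference of Pde7a, 0.45 ± 0.15 (SE, edgeR adjusted p = 0.129), did not pass.

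Other CREB family factors and coactivators had a median log2 fold change of -0.20 in males and 0.07 in females. In males 0 of 12 rose and 2 fell, or 16.7%, beside 11.2% of all genes. Crebrf, a regulator of CREB3-type factors, averaged 18.4 ± 0.98 CPM in male C-del muscle and 24.7 ± 1.03 CPM in male mock (SD, n = 4 each), a log2 fold change of -0.43 ± 0.06 (SE, edgeR adjusted p = 0.000664). Atf7, a factor of the ATF2 group that binds the same element, had a log2 fold change of -0.28 ± 0.06 in males (SE, edgeR adjusted p = 0.00818). Its call was lost in a fit of all 15 libraries, and the adjusted p over 13 alternatives was 0.00176 to 0.348. Of its exon bases, 11.7% are shared with Gm28047 on the same strand, so its count is uncertain. In females the log2 fold changes were 0.07 for Crebrf and 0.13 for Atf7, with overlap.

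Among LKB1 and the kinases it switches on, the AMPK-related relatives of the salt-inducible kinases included, 2 of 20 rose and 2 fell in males. That is 20% of the list, beside 11.2% of all genes. Snrk, an AMPK-related kinase expressed in muscle and vessels, had a log2 fold change of 0.41 ± 0.06 in males (SE, edgeR adjusted p = 0.000654) and 0.31 ± 0.13 in females (SE, edgeR adjusted p = 0.379). Nuak1, another kinase of the family, had -0.44 ± 0.07 in males (SE, edgeR adjusted p = 0.00114) and 0.12 ± 0.14 in females (SE, edgeR adjusted p = 0.764), and the difference between the sexes, 0.55 ± 0.15 (SE, edgeR adjusted p = 0.0867), did not pass. Prkag2, a regulatory subunit of AMPK, was lower in every C-del library of both sexes, by -0.50 ± 0.10 in males (SE, edgeR adjusted p = 0.00766) and -0.71 ± 0.19 in females (SE, edgeR adjusted p = 0.186). The male call was lost in 2 of 13 alternatives, the fit of all libraries and the one without mock libraries 3 and 4, with adjusted p from 0.000464 to 0.079. Prkag2 shares 14.5% of its exon bases with 2 genes on the opposite strand.

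The other branch downstream of the salt-inducible kinases, class IIa histone deacetylases, MEF2 factors and 14-3-3 proteins, had 1 gene of 14 higher and 1 lower in males. That is 14.3% of the list, beside 11.2% of all genes, and its median log2 fold change in males was -0.06. Mef2a, a MEF2 factor abundant in muscle, had -0.25 ± 0.05 (SE, edgeR adjusted p = 0.00916), and its call was lost in 2 of 13 alternatives, with adjusted p from 0.00156 to 0.338. Ywhag, the 14-3-3 protein gamma, had 0.14 ± 0.04 (SE, edgeR adjusted p = 0.0466) and kept its call in 3 of 13 alternatives, with adjusted p from 0.0136 to 0.388. In females both had log2 fold changes under 0.06 with overlap. Calcineurin, the calcium phosphatase that dephosphorylates CRTC proteins, was read with its regulators. Of these 8 genes, 1 rose and 2 fell in males, or 37.5%, beside 11.2% of all genes. Rcan2, a calcineurin inhibitor, had 136.0, 135.2, 131.9 and 129.7 CPM in male C-del, against 88.3, 90.2, 93.6 and 91.7 CPM in male mock, which is far outside the spread of either group. Its log2 fold change was 0.55 ± 0.04 in males (SE, edgeR adjusted p = 2.7e-06) and 0.39 ± 0.12 in females (SE, edgeR adjusted p = 0.227). Rcan1, the related inhibitor that calcineurin itself induces, had -0.39 ± 0.06 in males (SE, edgeR adjusted p = 0.00155) and 0.27 ± 0.19 in females (SE, edgeR adjusted p = 0.589). Ppp3ca, a catalytic subunit, had -0.21 ± 0.05 in males (SE, edgeR adjusted p = 0.0125). In females Ppp3ca had 0.03 ± 0.10 (SE, edgeR adjusted p = 0.921), with overlapping groups. In the fit of all 15 libraries Rcan1 and Ppp3ca lost the call, with adjusted p over 13 alternatives from 3.42e-06 to 0.162 and from 0.00302 to 0.144.

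Genes known as CREB targets had a median log2 fold change of 0.14 in males and 0.65 in females. Of 19 tested, 3 rose and 2 fell in males, or 26.3%, beside 11.2% of all genes. In females 0 passed in edgeR. At an unadjusted p under 0.05, 9 were higher and 1 was lower in females, where 11.9% of all genes were below it. DESeq2 called 7 higher in females, where it called 2.99% of all genes. Nr4a1, an orphan nuclear receptor induced within minutes of a cAMP rise in many cells, had 381.9, 411.2, 422.8 and 395.6 CPM in male C-del, against 214.7, 232.6, 210.6 and 219.9 CPM in male mock. Among female libraries it had 314.5, 241.4, 265.3 and 297.3 CPM in C-del, against 141.3, 105.6 and 150.6 CPM in mock. All C-del libraries lay far above mock in both sexes, with log2 fold changes of 0.88 ± 0.05 in males (SE, edgeR adjusted p = 7.99e-08) and 1.08 ± 0.15 in females (SE, edgeR adjusted p = 0.0686). Per1, a clock gene whose promoter answers to CREB, had 75.4, 75.6, 81.2 and 76.2 CPM in male C-del, against 44.6, 50.8, 49.7 and 46.7 CPM in male mock. Its log2 fold change was 0.68 ± 0.05 in males (SE, edgeR adjusted p = 3.82e-06) and 0.65 ± 0.16 in females (SE, edgeR adjusted p = 0.171), and the female groups did not overlap.

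Irs2, the insulin receptor substrate that CREB and CRTC2 induce in liver, had 74.1, 105.7, 94.3 and 82.5 CPM in male C-del, against 37.6, 36.0, 26.6 and 27.9 CPM in male mock. Its log2 fold change was 1.48 ± 0.15 (SE, edgeR adjusted p = 0.000774). In females it had 36.3, 27.1, 30.8 and 27.6 CPM in C-del, against 34.3, 26.3 and 15.1 CPM in mock, a log2 fold change of 0.27 ± 0.24 (SE, edgeR adjusted p = 0.677) with overlapping groups. The female minus male difference of -1.21 ± 0.29 (SE, edgeR adjusted p = 0.0714) did not pass, and over 19 alternatives the adjusted p was 0.00533 to 0.138. Egr1, an early growth response factor, was the only gene of the 7 lists to pass for that difference. It averaged 17.7 ± 7.95 CPM in male C-del muscle and 73.8 ± 9.20 CPM in male mock (SD, n = 4 each), and 81.3 ± 39.6 CPM in female C-del (SD, n = 4) and 23.8 ± 5.25 CPM in female mock (SD, n = 3). The difference was 3.82 ± 0.58 on the log2 scale (SE, edgeR adjusted p = 0.0225). It passed in 14 of 19 alternatives, with adjusted p from 1e-07 to 0.139. In males alone its log2 fold change was -2.06 ± 0.31 (SE, edgeR adjusted p = 0.0103), so that Egr1 fell where Sik1 rose, and the call was lost without mock libraries 3 and 4, with adjusted p over 13 alternatives from 7.45e-08 to 0.0665. In females alone it was 1.77 ± 0.42 (SE, edgeR adjusted p = 0.167), which did not pass.

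Promoter windows were available for 21 of the 23 genes of this list, Gem and Egr1 not among them. Of these, 5 held the full element and 17 the shorter one, a gene being counted when any of its windows held it. Per window, 1.79% of all 32851 windows held the full element and 20.8% the shorter one. The genes with the full element were Dusp1, Areg, Sst, Th and Btg2. Areg, Sst and Th averaged at most 0.24 CPM in any group. Printed below are the stretches for Nr4a1 and Per1, the targets on the list that rose in males and whose female libraries did not overlap either, and for Btg2, which holds the full element and returns below. Capitals mark the matches, read 5′ to 3′ in the direction of the gene on GRCm38.p6. Irs2 had 0 matches in its window.

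Nr4a1, chr15:101266596-101266830, plus strand: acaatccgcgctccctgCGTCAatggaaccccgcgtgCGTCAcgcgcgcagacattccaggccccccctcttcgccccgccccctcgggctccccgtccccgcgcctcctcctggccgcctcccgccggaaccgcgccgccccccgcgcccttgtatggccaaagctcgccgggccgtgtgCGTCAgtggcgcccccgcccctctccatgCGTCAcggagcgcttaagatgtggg

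Per1, the first of 2 start sites, chr11:69098699-69098727, plus strand: ttatTGACGgtgtgagacatcctgatcgc

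Per1, the second of 2 start sites, chr11:69100000-69100044, plus strand: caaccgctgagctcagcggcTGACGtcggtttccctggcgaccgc

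Btg2, chr1:134079294-134079341, minus strand: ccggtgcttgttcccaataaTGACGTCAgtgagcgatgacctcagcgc

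Nr4a1 holds 4 of the shorter elements, all written CGTCA in the direction of the gene. Sik3 holds 3 of them, all written TGACG, and had log2 fold changes of 0.10 in both sexes. The presence of the letters and the size of the change were not tested against each other.

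The genes whose levels followed Sik1 most closely were sought among 13520 genes by the correlation of log2(CPM + 1) over the libraries of each table, taking the lower of the male (n = 8) and the female (n = 7) value. These points share the C-del and mock groups, so a gene that differs between the groups as Sik1 does ranks high, and the values are descriptions. In males and females r was 0.96 and 0.97 for Apold1, 0.94 and 0.95 for Bcl6b_1, 0.94 and 0.95 for Dnajb1, 0.94 and 0.94 for Klf4, and 0.98 and 0.93 for Adamts1, the 5 highest. Apold1, an early response gene of the endothelium, averaged 12.7 ± 1.59 CPM in male C-del muscle and 8.66 ± 0.61 CPM in male mock, and 31.9 ± 11.1 CPM in female C-del and 4.27 ± 1.46 CPM in female mock (SD). Klf4, a Kruppel-like factor that blood flow raises in endothelial cells, averaged 35.9 ± 2.73 CPM in male C-del muscle and 14.6 ± 0.27 CPM in male mock, and 21.3 ± 2.42 CPM in female C-del and 13.04 ± 1.42 CPM in female mock (SD). Adamts1, a secreted protease, averaged 74.5 ± 5.04 CPM in male C-del muscle and 49.7 ± 5.40 CPM in male mock, and 44.5 ± 5.46 CPM in female C-del and 26.8 ± 1.17 CPM in female mock (SD).

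For all of these the C-del libraries lay above the mock libraries in both sexes, but the sizes differed from gene to gene and between the sexes. Dnajb1, an HSP40 co-chaperone, averaged 23.1 ± 5.25 CPM in male C-del muscle and 7.19 ± 0.36 CPM in male mock, and 10.8 ± 1.60 CPM in female C-del and 6.96 ± 1.15 CPM in female mock (SD). Bcl6b_1 is a further entry of Bcl6b, a repressor related to BCL6, and which copy its reads belong to is uncertain. It averaged 5.80 ± 0.87 CPM in male C-del muscle and 2.86 ± 0.26 CPM in male mock, and 11.1 ± 1.68 CPM in female C-del and 4.63 ± 0.45 CPM in female mock (SD). Since several of these genes are known from vessels, the endothelial markers were read beside them. The summed level of 6 endothelial markers was 466.9 to 495.7 CPM in male C-del muscle and 446.5 to 479.1 CPM in male mock, with overlap. It was 413.1 to 447.1 CPM in female C-del and 322.1 to 361.5 CPM in female mock, without overlap. Of the 6 markers 0 rose and 0 fell in either sex, where 11.2% of all genes passed in males and 0.0141% in females. With so few passing in females, the count there says little. Their median log2 fold change was 0.08 in males and 0.29 in females, beside 1.18 and 1.65 for Sik1. Summed pericyte markers were 938.6 to 968.4 CPM in male C-del muscle and 1066 to 1118 CPM in male mock, where 3 of 5 fell, and 895.3 to 987.4 CPM in female C-del and 739.4 to 887.0 CPM in female mock. The part of these cells in the level of Sik1 was not tested.

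**Figure D5:**
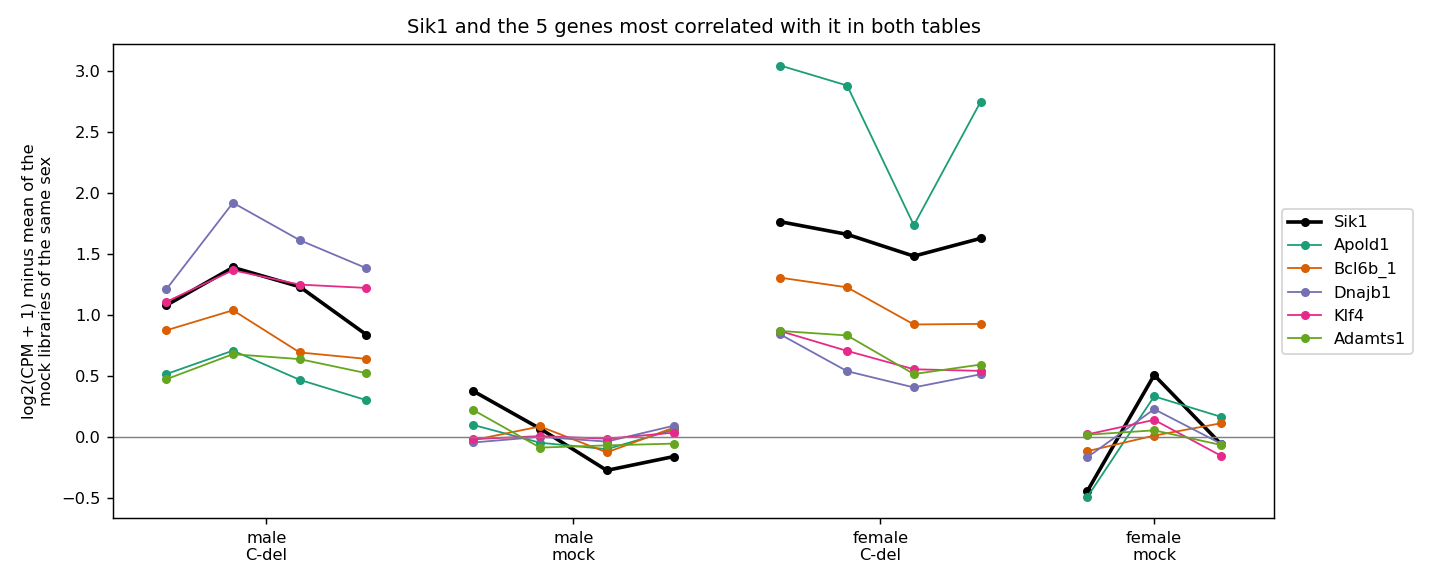
Each point is 1 library, given as log2(CPM + 1) minus the mean of the mock libraries of the same sex, for Sik1 (black) and the 5 genes most correlated with it, with C-del before mock in each sex. Lines join the values of a gene within a group and imply no order of libraries, and the C-del points lie between 0.299 and 3.05 while the mock points lie between -0.49 and 0.51.

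Among the 10 genes, Crtc3 had the highest correlation with Sik1 by the lower of both values, with r of 0.65 in males and 0.86 in females. Crem reached 0.85 in females and 0.29 in males, and Pde4b 0.75 in females and -0.12 in males. With the group means taken away, r over the 15 libraries was between -0.115 and 0.40 for the 9 other members, and between -0.365 and 0.37 without female mock library 2. Leaving that library out took Crtc3 to -0.365, against 0.25 with it, and Creb1 to -0.36, against 0.17 with it. By the same measure Gbp9, Skap2, Gbp4, Btg2 and Irf2 came first over all genes, with r of 0.90, 0.89, 0.86, 0.86 and 0.86. Gbp9 and Gbp4 are interferon-induced GTPases, Irf2 is an interferon regulatory factor and Skap2 is an adaptor of immune cells. Female mock library 2 is the one rich in immune markers and highest in Sik1 among the female mock libraries. Without it these values were 0.81, 0.80, 0.76, 0.82 and 0.74. With the group means kept, r with Sik1 was -0.48, -0.42, -0.73, 0.93 and -0.50 in females, in the same order. In males it was 0.60, 0.42, -0.63, 0.70 and 0.41. Gbp4 was lower in C-del in both sexes, with log2 fold changes of -0.82 in males and -1.63 in females. Btg2, an antiproliferative early response gene on the list of CREB targets and the one shown above with the full element, averaged 39.4 ± 6.06 CPM in male C-del muscle and 35.1 ± 5.70 CPM in male mock, and 63.2 ± 14.2 CPM in female C-del and 30.0 ± 12.1 CPM in female mock (SD). Its log2 fold change was 0.17 ± 0.14 in males (SE, edgeR adjusted p = 0.49) and 1.07 ± 0.29 in females (SE, edgeR adjusted p = 0.197), and the female groups did not overlap.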

How the data were processed

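The deposited values were handled like expected counts per gene, since 14.6% to 17.3% of a library's values lay more than 0.001 from a whole number. No label names a normalisation, and how the fractions arose is not given in the sources used here. Per the submitters' processing notes, the authors used featureCounts 2.0.0 and mouse build GRCm38.p6. Aligner and strand setting: not given in the sources used here. Counts were rounded before testing, since the planned test had assumed whole counts. In R 4.3.3, genes were filtered with filterByExpr (minimum count 10), scaled with TMM and tested with edgeR 4.0.16 (robust quasi-likelihood test, Benjamini-Hochberg over all genes, threshold 0.05), each sex alone. All 15 libraries were fitted together for the female minus male effect. The standard error (SE) was taken as the absolute log2 fold change over the root of F. Tests were checked on simulated data. DESeq2 1.42.0, limma 3.58.1, Python 3.11.15, pandas 2.3.3, numpy 2.4.6 and matplotlib 3.10.9 were also used. Pairs of libraries of a group differed by a chi-square per gene of at least 2.48, so none was treated as a copy. Lengths are the annotated exons of a gene, merged, and correlations used a pseudocount of 1 CPM. Promoter windows are RefSeq's for GRCm38.p6.

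The 10 genes, the 7 lists and the markers were chosen with earlier results of these data known. Named were all 10 genes and Lsmem2. From each list up to 3 genes with a mean of at least 1 CPM in both tables were named, those passing in males with the smallest p first, and likewise the 5 genes most correlated with Sik1 by each measure. Egr1 was named after its values were seen, and 1 gene that the rule gives is not reported here. Alternatives were DESeq2 and its size factors, no filter on low counts, a fit of all libraries and the replicate number as a block. Further ones were a pseudocount of 0.1, total counts as library sizes and each library left out. Male mock libraries 3 and 4 were also left out together, as were female mock libraries 2 and 3. That male pair did not stand apart by macrophage markers. Male C-del libraries 1 and 2, which did, were left out only singly.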

Additional observations from a re-analysis of the deposited data

Results flagged for a closer look

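Sik2 in male mock library 4 was 25.1 CPM, below the 27.6 to 28.04 CPM of the other male mock libraries, and stood apart from them by Dixon's test. Pde4b in female C-del library 4 was 106 CPM by the same test, above the 102 CPM of the other female C-del libraries. Of 33 groups examined 2 stood apart in this way, and chance flags about 1 in 20 groups. The 33 are counted gene by gene, for the 10 genes and Lsmem2, in the groups with 4 libraries. Female mock, with 3 libraries, was not examined.

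The effect on Egr1 differed between the male and the female table, by 3.82 on the log2 scale as female minus male (edgeR adjusted p = 0.0225, 1e-07 to 0.139 over 19 alternatives). Sex and table cannot be told apart, and the female C-del libraries ranged from 30.85 to 122.8 CPM.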

How the results depend on the processing

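In males, members passing the threshold numbered 1 as reported and 2 without a filter on low counts (Sik1 and Pde4d). Without mock libraries 3 and 4, the low pair for Pde4b, they numbered 2 (Sik1 and Pde4b). With 1 library left out they numbered 1 to 3. Over all genes the male count of 1624 was 380 in a fit of all libraries, 767 without mock libraries 3 and 4 and 1100 to 1526 with 1 library left out, and for the pathway lists 26 became 15, 17 and 22 to 27. In females the 2 genes became 512 with DESeq2, 16 without a filter, 777 in the fit of all libraries, 4 without mock libraries 2 and 3 and 1 to 1050 with 1 library left out. The highest count came without mock library 1, which leaves the mock libraries rich in immune markers. The 0 female members became 1, Sik1, under each of these 4 settings and 0 to 1 with 1 library left out, and the 0 pathway genes became 8 with DESeq2, 1 without a filter, 12 in the fit of all libraries and 0 to 8. For the female minus male effect 54 genes became 666 with DESeq2, and 10 to 1817 with 1 library left out, the highest again without female mock library 1. Female replicate numbers did not pair the libraries (r of deviations -0.13, -0.01 and -0.04 for the 3 shared numbers), and with the number as a replicate block 2 genes, 0 members and 0 pathway genes passed. With the longest transcript as length, added after seeing the data, 4 of 10 members kept their place. Under a pseudocount of 0.1, 9 of the 10 genes most like Sik1 were the same. The cause of these changes was not tested. Of the 260 log2 fold changes of members recomputed, 256 moved by less than the SD between libraries of a group and 4 by more. Leaving out 1 library can hardly move a mean by that much, so this count says little about stability. In females Creb1 changed sign in 3 of 13 alternatives, and Sik3 and Pde4d in 2 of 13 each. Crtc1 in females and Sik2 and Crtc2 in males did so in 1 of 13 each. Sik1 did so in 0 of 13 in each sex.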

Other observations

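Other genes of the 7 lists that passed in males included Adcy6 and Pde4a, which were higher in C-del, Adcy9, Pde3a and Junb, which were lower, and Nuak2. They were picked out after their values were seen. Nuak2, an AMPK-related kinase like the salt-inducible kinases, averaged 1.70 CPM in male C-del, against 0.79 CPM in male mock, a log2 fold change of 1.10 ± 0.25 (SE, edgeR adjusted p = 0.0131). In females it averaged 1.17 CPM in C-del, against 1.99 CPM in mock, a log2 fold change of -0.78 ± 0.49 (SE, edgeR adjusted p = 0.564). The female minus male difference was -1.89 ± 0.56 (SE, edgeR adjusted p = 0.0968), which did not pass. Pde4a, another gene of the PDE4 family, averaged 93.6 CPM in male C-del, against 78.3 CPM in male mock, a log2 fold change of 0.26 ± 0.06 (SE, edgeR adjusted p = 0.013). In females Pde4a had 0.27 ± 0.12 (SE, edgeR adjusted p = 0.42).

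Fos, an early response factor and CREB target, averaged 46.9 CPM in male C-del, against 14.7 CPM in male mock, with overlapping libraries (log2 fold change 1.68 ± 0.50, edgeR adjusted p = 0.0909). In females it averaged 47.5 CPM in C-del, against 9.57 CPM in mock, without overlap (log2 fold change 2.31 ± 0.38, edgeR adjusted p = 0.11). Neither passed.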
